A study of Drosophila melanogaster with 2 samples.

Results

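The 6 genes described here are the Notch receptor gene N, its ligand genes Dl and Ser, the ligand ubiquitin ligase gene neur, and the nuclear pathway genes Su(H) and H. They were chosen by name, but with earlier results of these data known. CLAMP regions were assigned to a gene when the summit lay inside it or within 10 kb of it. Of the 3071 peaks that the authors' optimal set for the dm6 genome build holds on 2L, 2R, 3L, 3R and X, 12 fell in these windows, at 4 of the 6 genes. N had 7 peaks, Dl and H had 2 each, neur had 1, and Ser and Su(H) had none. The 4 of 6 genes with a peak (66.7%) stand beside 40.4% of 13865 protein-coding genes on those arms that had an optimal peak within 10 kb.

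Notch is a transmembrane receptor that is cleaved after a neighbouring cell presents Delta or Serrate, and the freed intracellular part enters the nucleus and acts with the DNA-binding protein Suppressor of Hairless. Ligand activity needs ubiquitination by Neuralized or Mindbomb in the sending cell, and without a signal Hairless turns Suppressor of Hairless into a repressor. In the fly embryo the pathway is known for limiting how many cells become neuroblasts and muscle founders. CLAMP, the product of Clamp (CG1832), is a zinc-finger protein that recognises GA repeats and helps the dosage compensation complex find the male X.

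The study had 1 group of 2 biological replicates, numbered 4 and 2, with no second condition. Both were whole Drosophila melanogaster embryos, male and female together, collected from 0 to 24 h of development from a transgenic line stably making CLAMP with GFP at its C-terminus. Chromatin was sonicated to 200 to 800 bp and recovered with an antibody against GFP. All embryonic cell types were pooled, so a site held in fewer cells and a site held more weakly in each cell cannot be told apart, and an untagged line was not analysed here. Read depth is unknown from peak lists, and such lists carry no expression values with which the labelled stage could be checked. The signal value of each region is the authors' own enrichment score and is used only within a list. The optimal set had a median signal of 273 and a lowest of 123.

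The sequences below show what the summits at these genes had in common and where they differed. Each covers 201 bases centred on a summit and is given 5′ to 3′ on the plus strand of dm6, also for the genes on the minus strand (Dl and neur). Capitals mark GA runs, which are stretches of at least 6 bp where G and A strictly alternate; they may sit on either strand, so they read as GA or CT here. The sign in front of each distance gives its direction from the gene's most upstream transcription start site (TSS), plus being downstream. The strongest summit at N, 1732 bp into the gene in intron 1, is shown first because it carried a 16-bp run.
N +1732, chrX:3136502-3136702: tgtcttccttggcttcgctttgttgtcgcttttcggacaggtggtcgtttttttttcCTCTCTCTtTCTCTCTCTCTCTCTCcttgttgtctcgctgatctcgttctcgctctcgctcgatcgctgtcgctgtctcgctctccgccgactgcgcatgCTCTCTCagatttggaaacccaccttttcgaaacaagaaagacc
A weaker summit in the same intron is shown because it had no run of 8 bp but 5 shorter runs side by side.
N +7426, chrX:3142196-3142396: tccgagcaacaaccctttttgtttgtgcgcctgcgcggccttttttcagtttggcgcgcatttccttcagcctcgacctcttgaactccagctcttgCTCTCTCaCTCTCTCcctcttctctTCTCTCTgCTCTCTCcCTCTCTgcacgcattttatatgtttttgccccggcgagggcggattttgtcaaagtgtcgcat
In intron 5 a pair of summits 624 bp apart is shown because one lacked a long run and the other had a 15-bp run.
N +27418, chrX:3162188-3162388: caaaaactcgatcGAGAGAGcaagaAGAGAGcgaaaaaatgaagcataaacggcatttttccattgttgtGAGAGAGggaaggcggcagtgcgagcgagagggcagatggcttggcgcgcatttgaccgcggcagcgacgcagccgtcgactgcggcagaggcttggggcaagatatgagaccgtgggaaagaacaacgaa
N +28042, chrX:3162812-3163012: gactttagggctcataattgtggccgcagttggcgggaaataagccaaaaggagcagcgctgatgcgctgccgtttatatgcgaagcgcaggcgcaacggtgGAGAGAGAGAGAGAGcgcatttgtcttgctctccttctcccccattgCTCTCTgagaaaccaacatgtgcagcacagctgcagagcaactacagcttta
Both summits of Dl are shown because a long run lay within 100 bp of each of them, centred 83 bp and 67 bp away.
Dl +4266, chr3R:19321851-19322051: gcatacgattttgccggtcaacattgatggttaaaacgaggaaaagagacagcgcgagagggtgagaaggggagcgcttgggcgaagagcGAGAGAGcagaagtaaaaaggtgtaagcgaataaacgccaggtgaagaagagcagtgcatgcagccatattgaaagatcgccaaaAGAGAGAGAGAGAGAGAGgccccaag
Dl +4067, chr3R:19322050-19322250: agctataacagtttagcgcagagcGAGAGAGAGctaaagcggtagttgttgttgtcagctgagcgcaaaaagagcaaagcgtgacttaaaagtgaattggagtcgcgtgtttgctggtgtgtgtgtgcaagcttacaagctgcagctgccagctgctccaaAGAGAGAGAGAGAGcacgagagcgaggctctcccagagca
The summit inside the coding sequence of H is shown because it had no such run at all.
H +1250, chr3R:20623088-20623288: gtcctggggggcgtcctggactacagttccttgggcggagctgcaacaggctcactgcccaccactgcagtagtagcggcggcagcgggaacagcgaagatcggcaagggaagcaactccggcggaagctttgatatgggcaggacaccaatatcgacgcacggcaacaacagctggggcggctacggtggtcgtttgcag
The last sequence, from intron 1 of neur, is shown because it had a 13-bp run at the summit of a region listed in replicate 2 and in no other list. Since neur has 2 annotated TSSs, this summit was only 4826 bp from the nearer one.
neur +10566, chr3R:9028805-9029005: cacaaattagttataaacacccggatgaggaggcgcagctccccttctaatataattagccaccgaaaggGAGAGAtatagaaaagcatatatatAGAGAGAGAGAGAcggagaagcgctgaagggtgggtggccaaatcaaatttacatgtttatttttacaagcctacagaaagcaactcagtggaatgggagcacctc

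The 12 peaks differed in kind between the genes. All 9 peaks at N and Dl lay in introns or at promoters, and 7 of these 9 had a GA run of at least 8 bp within 100 bp of the summit. The 3 peaks at H and neur lay in coding exons and none had a run of that length. Over the 6 genes, 7 of 12 peaks (58.3%) were intronic, against 36.6% of the 3071 optimal peaks on the arms. Coding exons held 3 of 12 (25%), against 7.75% of all peaks. A promoter, meaning a summit within 500 bp of an annotated TSS, held 2 of 12 (16.7%), against 35.3% of all peaks. GA runs of that length accompanied 7 of 12 (58.3%), against 34.4% of all peaks. Within 50 bp of the summit 4 of 12 had one, all in the window of N. At that distance the share of all peaks was not counted. The median signal was 441 at the 12 peaks and 273 over the optimal set. It was 654 at the 9 peaks of N and Dl and 141 at the 3 of H and neur. No test was made of these counts, since 12 sites at 6 genes are few and are not replicates.

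**Figure D1:**
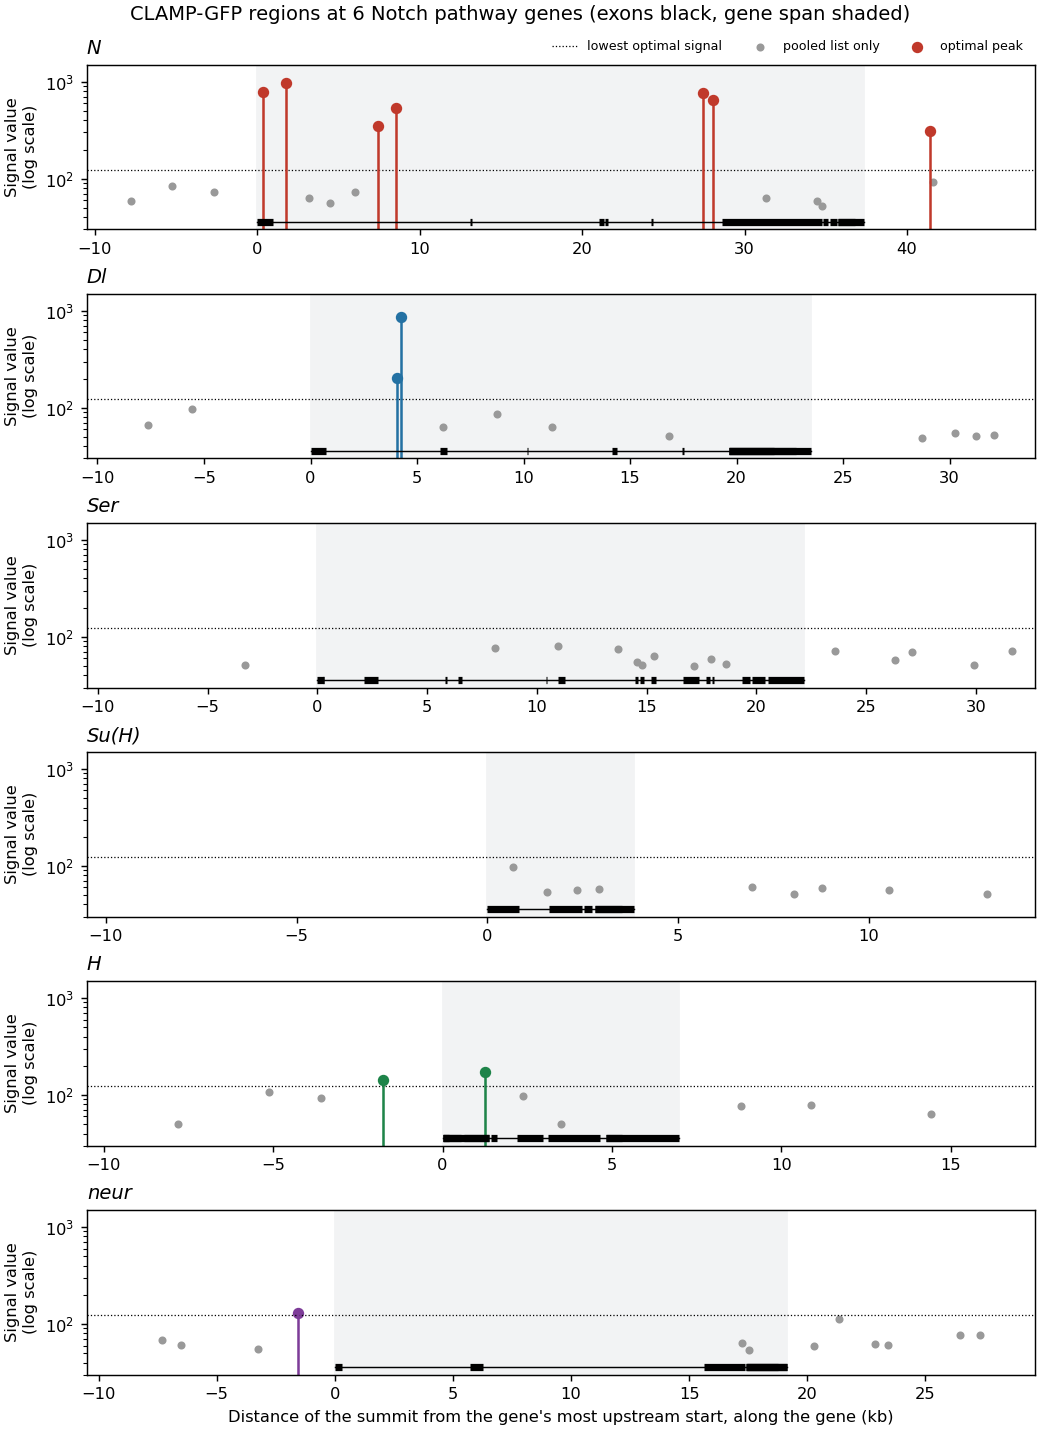
Signal value (log scale) of CLAMP-GFP regions against distance of the summit from the most upstream start of each gene in kb, for the 6 genes with 10 kb on either side. Tall coloured stems are optimal peaks, grey points are regions of the pooled list only, black boxes are exons and the dotted line is the lowest optimal signal of 123; N and Dl hold the tall stems, while H and neur barely pass the line and Ser and Su(H) stay under it.

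The receptor gene N (FBgn0004647, dm6 chrX:3134870-3172221, plus strand) had more peaks than the other members. It spans 37.4 kb, and 6 of its 7 peaks lay inside it. At least 7 peaks within 10 kb were found at 0.498% of protein-coding genes. At least 2 were found at 3 of the 6 genes (N, Dl and H), against 16.8% of all genes. The 2 of Dl overlap, and replicate 2 listed a single region for them. Of the 2 of H, one lay in the neighbouring CG5466 and the other was not found in replicate 2. Because a long gene has a larger window, density was also compared. The window of N held 122 peaks per Mb, with a 95% exact Poisson interval of 49.1 to 252 that covers counting error only, and the X as a whole held 33.6. A density at least as high was found at 4.29% of genes, which sets N among the more densely occupied genes but not apart from all others.

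**Figure D2:**
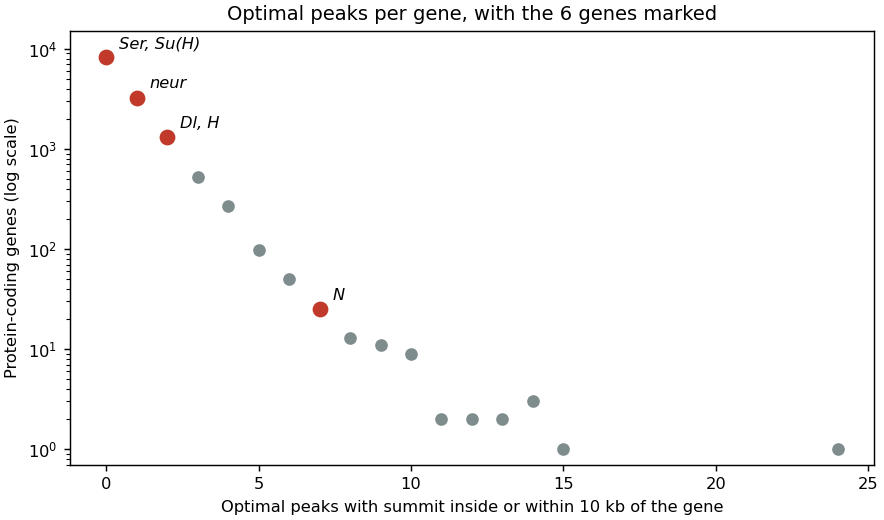
Number of protein-coding genes (log scale) with each number of optimal peaks whose summit lay inside or within 10 kb of the gene; red points mark the counts of the 6 genes and counts that no gene had are not drawn. N lies in the tail with 7 peaks, and the other 5 genes lie at 0, 1 or 2, where most genes are.

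The strongest peak of N lay in intron 1, which is 12147 bp long, with its summit at X:3136602, 1732 bp from the TSS. Its signal was 982 (rank 411 of the optimal set). It was listed at 748 (rank 368) in replicate 4 and at 229 (rank 591) in replicate 2, and since signals are not comparable between lists only ranks are set side by side. A second peak lay 1375 bp upstream of it, in the 5′ UTR and 357 bp from the TSS. This one had a signal of 779 (rank 553), rank 535 in replicate 4 and rank 635 in replicate 2, and a 13-bp GA run. Both of these peaks near the start of N were thus found in both replicates, at similar ranks.

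Further into intron 1 another pair of summits lay 1085 bp apart. The summit at X:3142296 had a signal of 350 (rank 1202), with ranks of 1019 in replicate 4 and 1817 in replicate 2. Its 5 runs of 6 to 7 bp held 34 bases within a stretch of 47 bp, as the second sequence shows. At least 4 runs of 6 bp or more were found at 2 of the 12 peaks, both at N, against 4.33% of all optimal peaks. The summit at X:3143381 had a signal of 531 (rank 831) and a 10-bp run, with rank 1125 in replicate 2. It was not found in replicate 4, where the nearest region of the whole list was 1085 bp away.

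In intron 5, which is 4245 bp long, the pair of summits lay far from any annotated TSS. The summit at X:3162288 had a signal of 769 (rank 562), with ranks of 510 in replicate 4 and 748 in replicate 2. It had no run of 8 bp, but near its 3′ end the sequence printed above holds GTGGGAA, a form of the site known for Suppressor of Hairless. Searched on both strands within 100 bp of the summit, GTGGGAA was present at this 1 of 12 peaks, against 4.14% of all optimal peaks; a match of letters is not a measured site. The neighbouring summit at X:3162912 had a signal of 654 (rank 675), with ranks of 612 in replicate 4 and 911 in replicate 2. It lay 10228 bp from the nearest TSS, that of CG18508.

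The last peak in the window of N lay outside the gene. Its summit at X:3176279 was 161 bp from a TSS of dnc, the cAMP phosphodiesterase gene, and had a 19-bp GA run. The signal was 310 (rank 1360), with ranks of 1233 in replicate 4 and 1815 in replicate 2. Of the 7 peaks, 5 had a GA run of 8 bp or more, and 6 were found in both replicates.

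Replicate 2 listed further intronic sites of N that replicate 4 did not. Taking from each replicate's list as many of the strongest regions as the optimal set has peaks (the top regions), replicate 2 had 9 in the window of N and replicate 4 had 6. One top region that only replicate 2 had was at X:3140863 in intron 1 (signal 67.1, rank 2241, GC content 42.8%). Another lay at X:3163186 in intron 5 (signal 49.9, rank 2894, GC content 38.8%). For both, no summit of the whole list of replicate 4 lay within 200 bp. The region at X:3163186 overlapped the optimal peak at X:3162912, however, and the nearest summit of replicate 4 was 272 bp away. It may thus be a flank of that peak and not a separate site, which was not tested. The 7 optimal peaks at N had GC contents of 48.8 to 54.7%, above both of these sites.

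By the ranks in the 2 replicates, the promoter peaks most like the strongest peak of N were those at CG1354 and at fd59A, a forkhead gene. The measure was the sum of the absolute differences in log10 rank, taken over 2 samples and 903 promoter peaks. It was 0.0205 for CG1354, whose peak had a signal of 988 and ranks of 354 in replicate 4 and 586 in replicate 2. It was 0.0222 for fd59A, with a signal of 1009 and ranks of 360 and 574. Likeness in 2 ranks says only that these peaks are of similar height.

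The ligand gene Dl (listed as Delta in the annotation, FBgn0000463, dm6 chr3R:19302731-19326217, minus strand) had 2 overlapping peaks in intron 1, and none elsewhere. The stronger had its summit at 3R:19321951, 4266 bp from the TSS, with a signal of 869 (rank 488). It was listed at 629 (rank 452) in replicate 4 and at 216 (rank 644) in replicate 2, and had an 18-bp GA run. The weaker lay 199 bp nearer to the TSS, at 3R:19322150, with a signal of 205 (rank 1904) and a 14-bp run. Replicate 4 listed a region of its own there, with a signal of 140 (rank 1700). Replicate 2 had a single region for both summits, the one of rank 644, so the weaker peak was not resolved in that replicate. Its window held 46.0 peaks per Mb, with a 95% exact Poisson interval of 5.57 to 166 that includes the 20.5 per Mb of 3R.

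The ligand gene Ser (FBgn0004197, dm6 chr3R:27172090-27194267, minus strand) had no optimal peak, although it is nearly as long as Dl. Its window held 15 regions of the pooled list, 15 of replicate 4 and 10 of replicate 2, and those lists include background regions by their deposited description. The best pooled region had a signal of 79.7 (rank 8936 of 30000), below the lowest optimal signal of 123. The best region of replicate 4 ranked 6407 (signal 68.5) and that of replicate 2 ranked 9812 (signal 23.4). The replicates did not have the same best region, since that of replicate 4 lay in CG5909, near ppk31, and that of replicate 2 in an intron of Ser. The ligands thus differed in these lists: Dl had a peak among the 500 strongest of the optimal set, and Ser had none within 10 kb.

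The ubiquitin ligase gene neur (FBgn0002932, dm6 chr3R:9020348-9039471, minus strand) had 1 weak optimal peak, which lay outside it. The summit at 3R:9041026, 1555 bp upstream of neur, lay in a coding exon of hyx, which encodes a subunit of the Paf1 complex. Its signal was 130 (rank 2868, near the end of the optimal set), with rank 2281 in replicate 4 and rank 15076 in replicate 2. The replicates therefore placed it very differently, and its GC content was 61.2%. The strongest site inside neur was listed in replicate 2 alone, at 3R:9028905 in intron 1 (15309 bp), with a signal of 65.0 (rank 2291) and a GC content of 43.3%. It is the neur sequence printed above, and no region of replicate 4, of the pooled list or of the optimal set lay within 200 bp of its GA run.

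The DNA-binding partner gene Su(H) (FBgn0004837, dm6 chr2L:15039488-15043334, plus strand) had no optimal peak. It spans 3.85 kb and has the smallest of the 6 windows, with 9 pooled regions. The best of these lay in a coding exon of Su(H) with a signal of 97.1 (rank 5035), and was not found in replicate 4. The best region of replicate 4 ranked 13003 (signal 53.9) and that of replicate 2 ranked 12661 (signal 21.4), and both lay in ck, a neighbouring myosin gene. Neither replicate thus had a region near Su(H) among its 10000 strongest.

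The corepressor gene H (FBgn0001169, dm6 chr3R:20621938-20628915, plus strand) had 2 weak peaks in coding sequence. The summit at 3R:20623188, 1250 bp into H, had a signal of 172 (rank 2194) and a GC content of 62.2%. It ranked 1605 in replicate 4 (signal 151) and was not found in replicate 2, whose nearest region was 2242 bp away. The other summit, at 3R:20620170 and 1768 bp upstream, lay in a coding exon of CG5466 and had a signal of 141 (rank 2612) and a GC content of 58.2%. It ranked 2257 in replicate 4 and 4118 in replicate 2. Of the top regions, replicate 4 had 3 in the window of H, one of them at the promoter of CG15923 (rank 2147), and replicate 2 had 0.

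**Figure D3:**
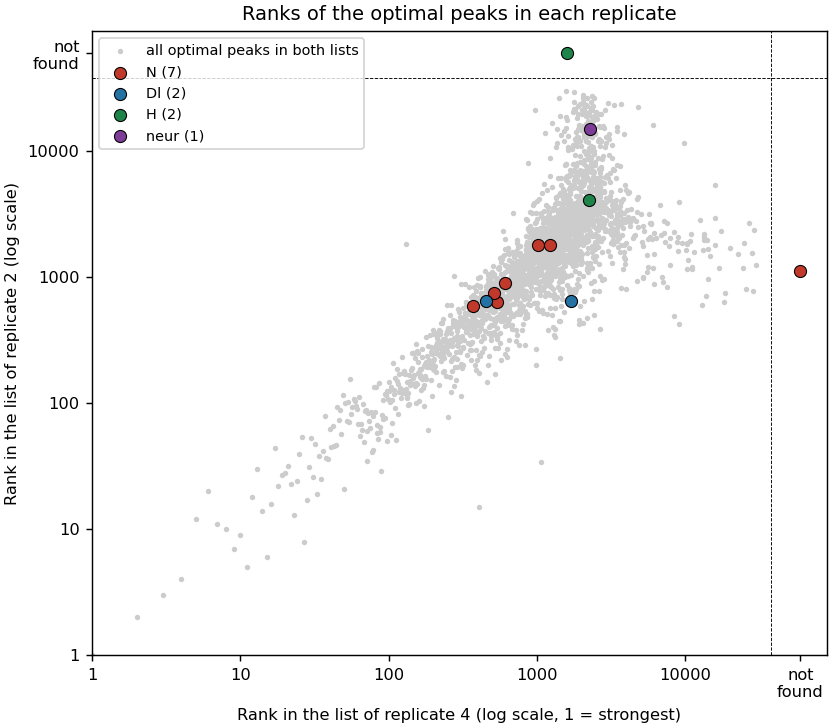
Rank of each optimal peak in the list of replicate 2 against its rank in the list of replicate 4 (both log scale, 1 being the strongest), with all optimal peaks found in both lists in grey and those at N, Dl, H and neur coloured. The N peaks found in both lists and the stronger Dl peak rank 1817 or better in both, the weaker Dl peak is drawn at the replicate 2 rank (644) of the region it shares with the stronger one, 1 N peak is not found in replicate 4, 1 H peak is not found in replicate 2, and the neur peak ranks 15076 there.

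Across the 6 genes, 10 of 12 optimal peaks (83.3%) had a summit of each replicate within 200 bp, against 80% of all optimal peaks, so this share was near the background. The 10 include the weaker Dl peak, which replicate 2 did not resolve. With each region matched only to its nearest optimal peak, 9 of 12 were found in both replicates, against 79.5% of all optimal peaks, and with summits within 100 bp 8 of 12, against 76.3%. Among the top regions of each replicate, 8 of the 12 were found in both, the weaker Dl peak again through the region of its neighbour, against 58.6% of all optimal peaks. With the top regions of replicate 4 alone, 4 of the 6 genes (N, Dl, H and neur) had a region within 10 kb, against 44.3% of all genes. With those of replicate 2 alone, 3 genes (N, Dl and neur) had one, against 38.6% of all genes. The region at neur was not the same in both, lying in hyx in replicate 4 and in intron 1 of neur in replicate 2. An optimal peak inside the gene itself was found at 3 of 6 (N, Dl and H), against 9.89% of all genes. A longer gene has more room for a peak, N, Dl and H span 37.4, 23.5 and 6.98 kb, and the share was not matched for length.

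The difference between the replicates went with base composition. Across 2458 optimal peaks found in both lists, GC content within 100 bp of the summit and the log2 ratio of the rank in replicate 2 to the rank in replicate 4 had a Spearman's rho of 0.558, given as a description across sites of the same 2 libraries. The 9 peaks at N and Dl had GC contents of 48.8 to 54.7%, and the 3 at H and neur had 58.2 to 62.2%. Peaks in coding exons were of that kind throughout the optimal set. The 238 of them had a median GC content of 60.2% and a median signal of 134, and 2.94% had a GA run. Of these 238, 32.8% were not found in replicate 2 and 11.8% not in replicate 4, while of 1125 intronic peaks 2.93% were not found in replicate 2 and 17.1% not in replicate 4. The part of GC content in the peaks at H and neur was not tested.

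**Figure D4:**
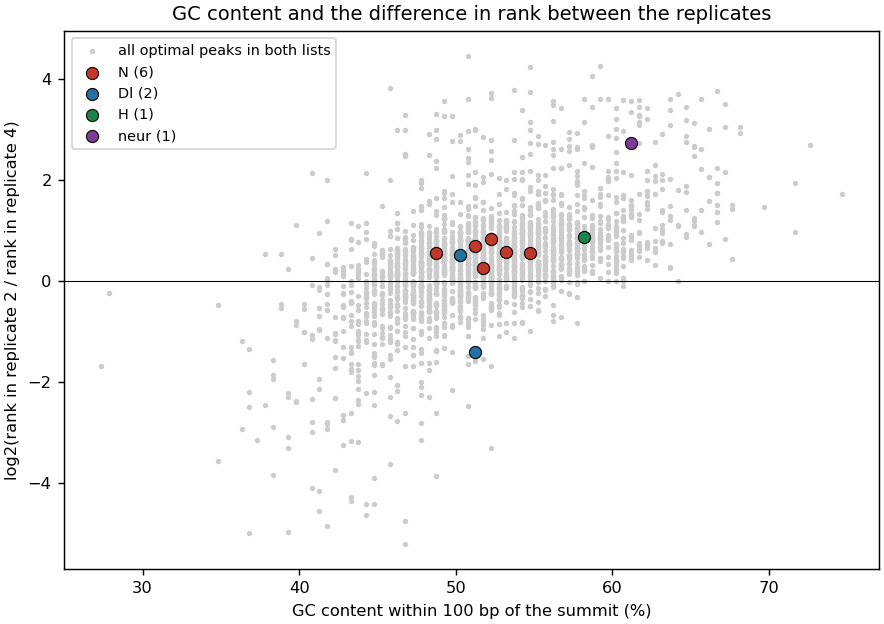
The log2 ratio of each peak's rank in replicate 2 to its rank in replicate 4 against the GC content within 100 bp of its summit (%), with all 2458 optimal peaks found in both lists in grey and the 10 at N, Dl, H and neur coloured, the weaker Dl peak at the replicate 2 rank of the region it shares. Peaks above the line have a weaker rank in replicate 2; the H and neur peaks lie at 58.2 and 61.2% GC, to the right of every N and Dl peak.

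Long GA runs were counted to ask how often one went without a peak, a count added after values had been seen. The windows of the 6 genes held 9 runs of 12 bp or more, and 6 of the 9 had an optimal summit within 200 bp, against 24.9% of 2445 such runs on the arms. N had 6 of these runs, 4 of them with a summit, Dl had 2, both with a summit, and neur had 1 without. The windows of Ser, Su(H) and H held none, while 27% of all protein-coding genes had at least 1 such run within 10 kb. The 2 bare runs of N were intronic and 21 bp and 13 bp long, with GC contents of 37.8 and 39.3% around them, and no region of any of the 4 lists lay within 200 bp of either. The longest run in any of the windows was thus among those without a peak. Of genes with such a run in the window 57.1% had an optimal peak, against 34.2% of genes without one, with median windows of 23.0 and 22 kb.

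The window of 10 kb did not cut close to any peak. The farthest peaks counted were 4058 bp outside N, 1768 bp outside H and 1555 bp outside neur. The nearest not counted was 13825 bp from Su(H), within ck (signal 706, rank 628), followed by one 15452 bp from neur near Kdm2 (166) and one 19859 bp from Ser near Men-b (360). For N, H and Dl the nearest lay 22458 bp away at dnc (125), 27140 bp away near bon (340) and 60850 bp away near unc79 (178).

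The rest of the pathway was described with 24 other genes listed by role. Of these, 13 had an optimal peak within 10 kb (54.2%), against 40.4% of all genes, and 8 had one inside the gene, against 9.89%. Neither share was matched for gene length, and mam, for example, spans 69.2 kb. Together they had 30 peaks with a median signal of 207, against 273 over the optimal set. Introns held 15 of the 30 (50%, against 36.6% of all optimal peaks), promoters 7 (23.3%, against 35.3%) and coding exons 3 (10%, against 7.75%). GA runs of at least 8 bp within 100 bp of the summit lay at 8 of the 30 (26.7%), below the 34.4% of all optimal peaks. The share at the 6 genes (58.3%) was above it at this distance, with all of those runs at N and Dl. Both replicates had 23 of the 30 (76.7%), against 80% of all optimal peaks. The highest values were thus not at the 6 genes named first, since peaks at CtBP, dx, Nedd4, mam and, narrowly, gro exceeded the best of N.

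All 4 nuclear cofactor genes had peaks, 13 in all, where 40.4% of all genes had a peak. Each role holds few genes. CtBP, a corepressor gene, had 1 in an intron with a signal of 2325 (rank 122; 134 in replicate 4 and 110 in replicate 2). The coactivator gene mam had 7 peaks like N, 6 of them inside the gene, with a highest signal of 1535 and the other 6 at 125 to 214. The Groucho corepressor gene gro had 2 peaks outside the gene, the stronger (986) lying 105 bp from the TSS of its neighbour E(spl)m8-HLH, a Notch target gene. The gene sno (strawberry notch) had 3 intronic peaks of 175 to 196.

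Of 6 genes for receptor trafficking and turnover, 4 had peaks (66.7%, against 40.4% of all genes). The E3 ligase gene dx had one of 1710 (rank 200) at its promoter with a 13-bp GA run and one of 529 in the neighbouring CG34417. Nedd4, another E3 ligase gene, had one of 1543 (rank 227) at a promoter and one of 171 in a coding exon. Su(dx), a relative of Nedd4, had one of 356 at its promoter. The Notch antagonist gene numb had 4, of which the stronger pair (649 and 617) lay inside the gene and was not found in replicate 4, although replicate 2 ranked them 444 and 724. Without a peak were spdo and lgd. The best region in the window of lgd ranked 3225 in the pooled list, 2555 in replicate 4 and 1770 in replicate 2. Each replicate thus had a top region near lgd, and whether it was the same one was not checked.

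In the remaining roles no peak exceeded 553. For ligand endocytosis, the E3 ligase gene mib1 had peaks of 335 (in hzg) and 129 outside the gene, and the epsin gene lqf had one of 142 at its promoter and one of 124 in ltl. For receptor cleavage, 2 of 5 genes had peaks (40%, against 40.4% of all genes), and none lay inside the gene. The ADAM protease gene kuz had peaks of 282 and 148, both in B4, and the presenilin gene Psn had one of 367 in CG5910 with a 21-bp GA run. For glycosylation, fng had one of 553 outside the gene, and O-fut1 and rumi had none. The best region in the window of O-fut1 ranked 3089 in the pooled list, 2123 in replicate 4 and 1846 in replicate 2, so each replicate had a top region there. The cleavage genes nct, aph-1 and pen-2 and the neur inhibitor genes Brd, Tom, Ocho and BobA had no optimal peak either. Brd, Tom and Ocho had their best pooled region at the same rank (9867), so their windows overlap. They were still counted as separate genes.

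**Figure D5:**
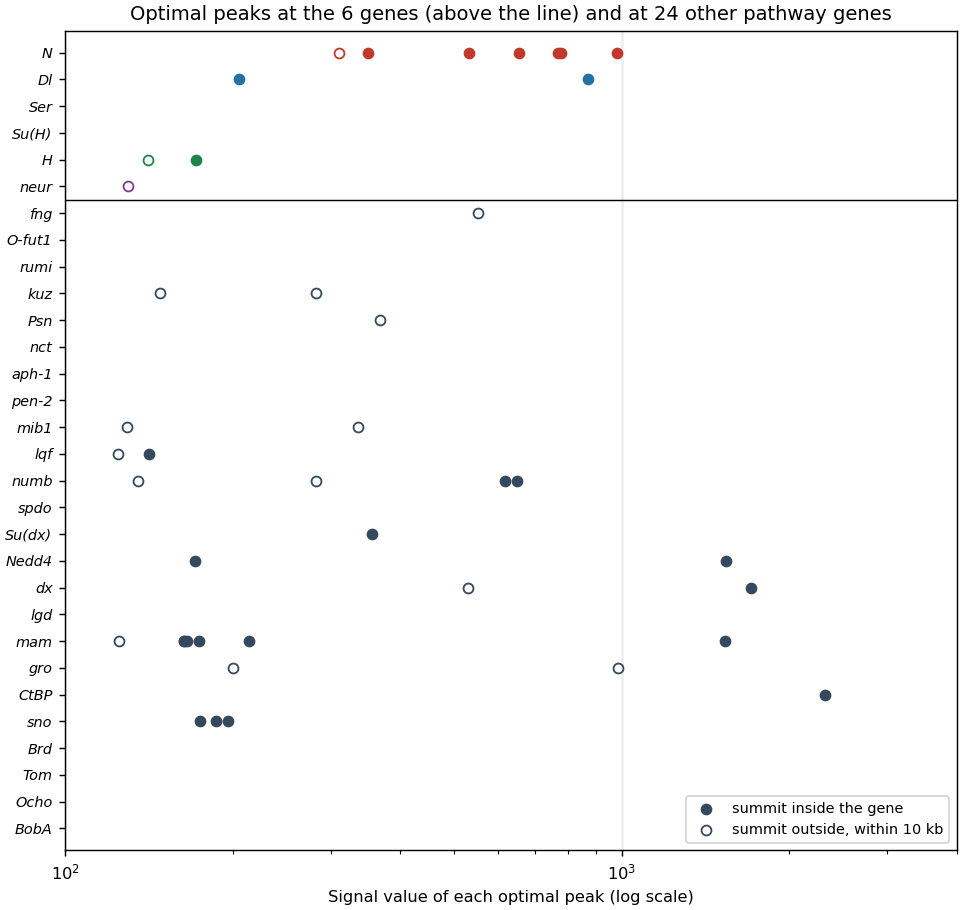
Signal value (log scale) of each optimal peak within 10 kb of the 6 genes, above the line, and of 24 other pathway genes, below it; filled points have the summit inside the gene and open points outside it. N has 7 peaks at 310 to 982, and the highest points below the line are those of CtBP, dx, Nedd4 and mam at 1535 to 2325.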

How the data were processed

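CLAMP-GFP ChIP-seq regions of 2 embryo replicates (1 group) were analysed from 4 dm6 lists deposited by the authors: replicate 4, replicate 2, both pooled, and the optimal set. The deposited text files say that a replicate's list came from its own alignment and 1 control file, that the pooled list used both alignments, and that an irreproducible discovery rate step gave the optimal set. The aligner, the caller, the cut-off and any scaling to depth were not given in the sources used here. Signal values are the authors' own, as deposited. Every optimal peak was identical to a pooled region. The lists for dm3 were not used, and no coordinates were converted.

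Summits were placed on the RefSeq Release 6 genome with the BDGP 6.54 annotation of Ensembl release 115, and 3 older gene symbols were replaced (Dl by Delta, nct by Nct, lgd by l(2)gd1). A peak was found in a replicate when a summit of the whole list lay within 200 bp. The background is all protein-coding genes, or all optimal peaks, of the 5 arms. The genes named are the 6 members, the pathway genes with a peak and the others by name only, the genes nearest to summits in the windows, and the 2 with the most similar promoter peak. Best ranks are also given for lgd and O-fut1 and for Brd, Tom and Ocho, an addition made after values had been seen. The members and lists were chosen with earlier results of these data known, and the counts of GA runs of 12 bp or more were added after values had been seen. No test was made, because there is 1 group and the members are not replicates. Poisson intervals are exact, at 95%, and cover counting error only. Alternatives were other distances, thresholds, run lengths and each replicate alone. The counting was tested on simulated data. The software was pandas 2.3.3, numpy 2.4.6 and scipy 1.17.1 under Python 3.11.15.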

Additional observations from a re-analysis of the deposited data

How the results depend on the processing

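Of 35 alternatives tried over 6 counts, 31 gave a count within 1.5 times the one reported and 4 did not. With the optimal peaks above the middle rank alone, 2 members had a peak (N and Dl) in place of 4. Inside the gene only, 8 pathway genes had a peak in place of 13. Within 50 bp of the summit, 4 peaks had a GA run in place of 7. Within 250 bp of a TSS, 1 peak counted as promoter in place of 2. Matching each replicate region only to its nearest peak, a rule added after the data had been seen, left 9 peaks found in both replicates in place of 10. The 4 rules that moved a count are narrower by construction. Within 20 kb all 6 members had a peak, with 3 at neur and 1 each at Ser and Su(H). At that distance 17 pathway genes had one, and with the whole peak interval in place of the summit 14 did, in place of 13. A wider window can only add peaks at any gene. The matching shares of all genes or all peaks were not counted for the 20-kb, whole-interval, middle-rank, 50-bp and 250-bp rules. Each replicate alone gave 3 to 4 of the 6 members and 15 of the 24 pathway genes with a top region. Of all genes, 44.3% had one in replicate 4 and 38.6% in replicate 2. The 15 were those with an optimal peak and also lgd and O-fut1. At the members each replicate gave 11 to 12 regions, 6 to 7 of them with a GA run and 2 to 3 at a promoter. The shares of all top regions with a GA run or at a promoter were not counted. No paired analysis was possible because there is only 1 group. Read depth is unknown, so a region missing from a list may lie below what its library could show.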
